A study of Homo sapiens with 24 samples.

Results

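Chromosome 19 zinc finger mRNAs are described here through the places where Argonaute 2 (Ago2) was crosslinked to them. The members were all Ago2 peaks on chromosome 19 whose annotated gene symbol is ZNF followed by a digit, whatever their values. There were 124 such peaks in 46 genes, among 24041 peaks in 6088 genes in all. The cells were 293S, an adherent line derived from human embryonic kidney, either left untreated or given 1 mM sodium arsenite for 30 min, and 4 biological replicates were made of each. Ago2-crosslinked RNA (CLIP), total RNA and a CLIP gel band used to quantify miRNAs were sequenced, which gave 24 libraries in 6 groups. Total RNA values were not analysed here.

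Most ZNF proteins of this chromosome are C2H2 zinc finger proteins, in which short zinc-binding fingers follow each other in tandem and contact DNA. Their genes arose by repeated duplication and lie in clusters, so the coding sequence is repetitive both within a gene and between genes. Many carry a KRAB domain, which recruits the corepressor TRIM28 and through it enzymes that place repressive histone marks, above all on transposable elements. Ago2 carries a miRNA whose seed, near its 5' end, pairs with the target RNA. Such sites are best known from 3' untranslated regions (3'UTRs), but the repeated coding sequence of zinc finger genes has been described as a place of clustered sites, among them those of miR-181.

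The miRNAs below are shown because their seeds were the ones most often matched in the coding peaks of these mRNAs. The sequences are from RefSeq (GRCh38.p14), written 5' to 3', and the capitals mark bases 2 to 8, taken here as the seed. The peak table does not state which 7 bases it used.
miR-181a-5p: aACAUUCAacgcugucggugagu
miR-181b-5p: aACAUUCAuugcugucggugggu
miR-181c-5p: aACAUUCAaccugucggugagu
miR-181d-5p: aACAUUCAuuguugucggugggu
miR-92a-3p: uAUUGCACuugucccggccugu
miR-23b-3p: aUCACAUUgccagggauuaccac
miR-19b-3p: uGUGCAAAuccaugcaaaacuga

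The 4 miR-181 sequences share 1 seed, and the RNA bases that pair with it read UGAAUGU. The bases that pair with the miR-23 seed read AAUGUGA, so the start of this site and the end of the miR-181 site have the 5 bases AAUGU in common, and both sites fit into the 9 bases UGAAUGUGA. The sites of miR-92a-3p (GUGCAAU) and miR-19b-3p (UUUGCAC) have other letters. The peak table names the families whose 7-nucleotide seed is matched in a peak but not where in the peak. The sequence of the peaks themselves was not used here.

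Each peak has a log average of normalized CLIP signal, taken over both treatments, and a log ratio, in which the arsenite signal is divided by the untreated signal. Both are the authors' values, 1 per peak for all replicates together, so no error, depth or replicate test can be given and every comparison below is a description. The base of the logarithm and the normalizer are not stated. Whether a log ratio goes with a change in the amount of the mRNA was not tested. Genes of these clusters have close paralogs, and how reads that fit several of them were assigned is not given in the sources used here.

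Ago2 signal on chromosome 19 zinc finger mRNAs was mostly higher with arsenite, as it was on the table as a whole. Of the 124 peaks, 96 had a log ratio above 0 (77.4%), against 70.3% of all peaks. The median was 0.80, with quartiles of 0.12 and 1.22, and the median of all peaks was 0.65. A log ratio above 1 was listed for 41 peaks (33.1%, against 39.1% of all peaks), and one below -1 for 6 (4.84%, against 7.43%). Peaks of these genes thus lay closer together than all peaks did, whose quartiles were -0.16 and 1.49. Other chromosome 19 genes were in part alike, with quartiles of -0.18 and 1.18, 31.4% of peaks above 1 and 5.81% below -1. In ZNF genes on other chromosomes the quartiles were -0.19 and 1.63. The member peaks also had higher log averages, with a median of -4.01 against -5.18 for all peaks.

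By gene, 41 of the 46 medians lay above 0, or 89.1%, against 81.3% of all genes. The median of the 46 gene medians was 0.92, and that of all 6088 genes was 0.91. At the peak of the highest log average in each gene, 39 of 46 log ratios were above 0 (84.8%, against 79.9% of all genes), with a median of 0.93 where all genes had 1.10. The share above 0 was thus higher than the table's on each of these counts, whereas with each gene counted once the median was at the table's by gene medians and below it at 1 peak per gene. Only 1 peak was listed for 27 of the genes, 2 peaks for 9 and at least 3 for 10.

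**Figure D1:**
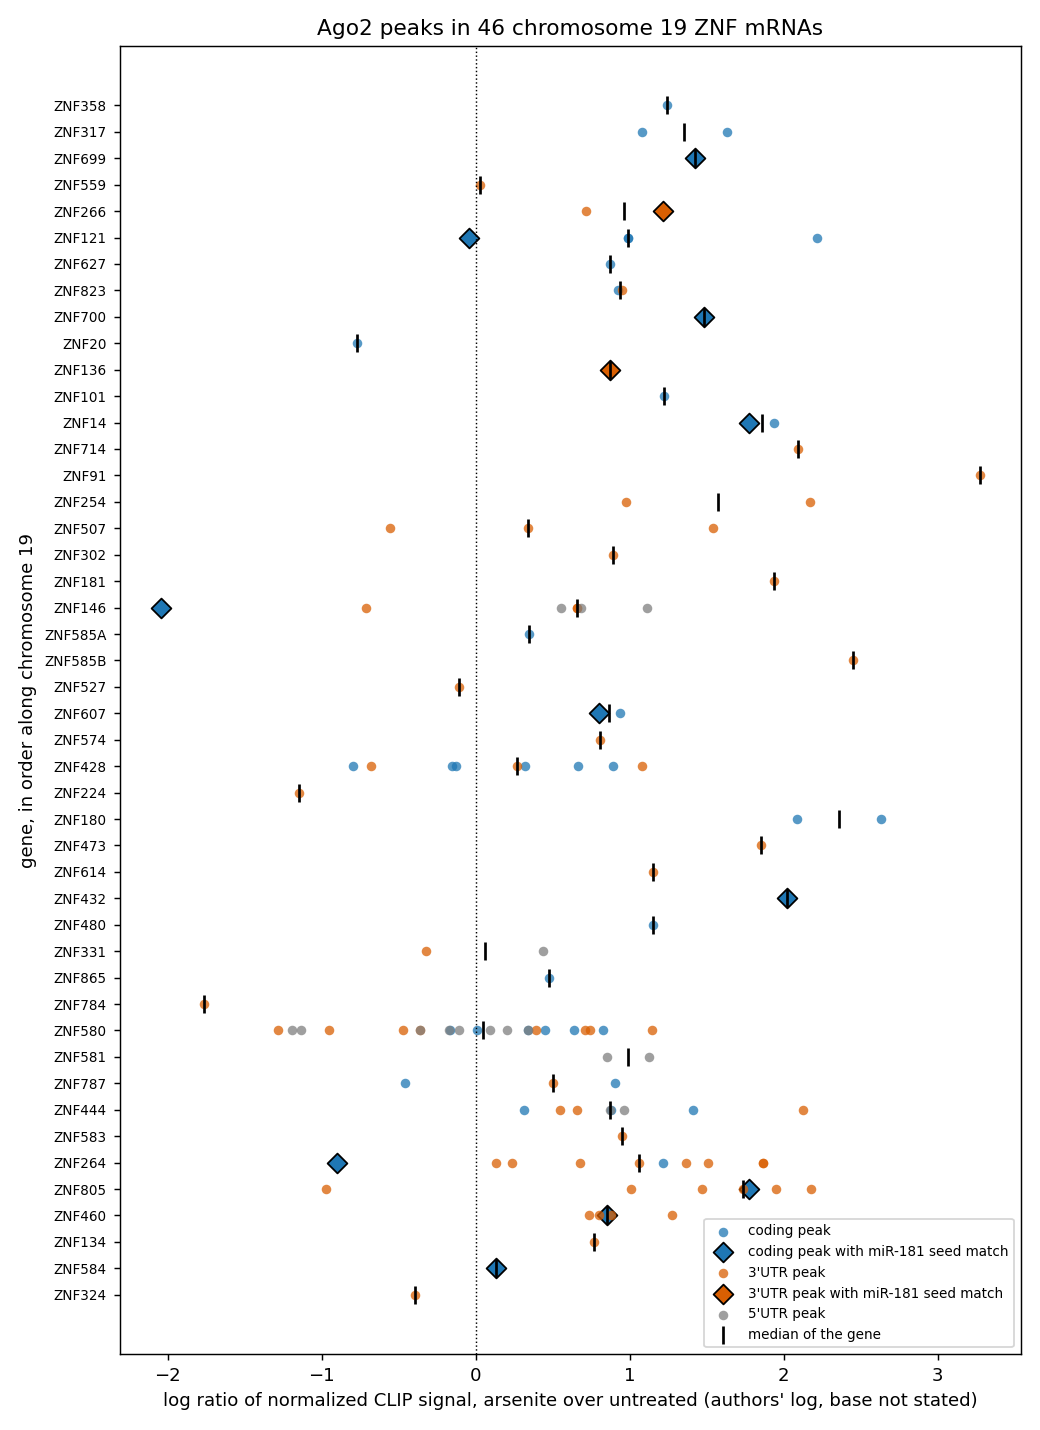
Log ratio of each of the 124 peaks (x axis, authors' log, base not stated) in the 46 genes, in their order along chromosome 19 (y axis). Colour gives the region, diamonds are peaks with a miR-181 seed match and black bars are gene medians, 41 of which lie to the right of 0.

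Coding and 3'UTR peaks of these mRNAs had similar log ratios. The 47 coding peaks, in 25 genes, had a median of 0.87, and 37 of them (78.7%) lay above 0, against 68.4% of all coding peaks. The 61 peaks in 3'UTRs, in 29 genes, had a median of 0.80, and 48 (78.7%) lay above 0, against 76.2% of all 3'UTR peaks. Coding minus 3'UTR, the difference of medians was 0.07 here, -0.41 for ZNF genes on other chromosomes, -0.15 for other chromosome 19 genes and -0.30 for all peaks. The sign of the small difference in the chromosome 19 zinc finger mRNAs was not stable. It was -0.01 when only 1 peak was kept of those that overlap, and -0.02 as the median over the 9 genes with peaks in both regions.

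In coding sequence the median of the members lay above those of similar genes. The coding median of 0.87 stood beside 0.49 over 142 coding peaks in ZNF genes on other chromosomes and 0.44 over 783 coding peaks in other chromosome 19 genes. In 3'UTRs the order was different, with 0.80 here, 0.90 over 233 peaks in ZNF genes elsewhere and 0.59 over 926 peaks in other chromosome 19 genes. Beside ZNF genes elsewhere, the coding order held only in part. Coding peaks with a listed seed had a median of 0.89 here and 1.17 in ZNF genes elsewhere. For coding peaks without one the medians were 0.87 and 0.31. A log ratio above 1 was listed for 34.0% of coding peaks here and 36.6% in ZNF genes elsewhere. That share was 28.9% in other chromosome 19 genes. No test over samples could be made of these differences. The 16 peaks in 5'UTRs had a median of 0.39, and 11 (68.8%) lay above 0, against 60.8% of all 5'UTR peaks. Of these 16 peaks, 8 were in ZNF580, and the median of the other 8 was 0.86.

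**Figure D2:**
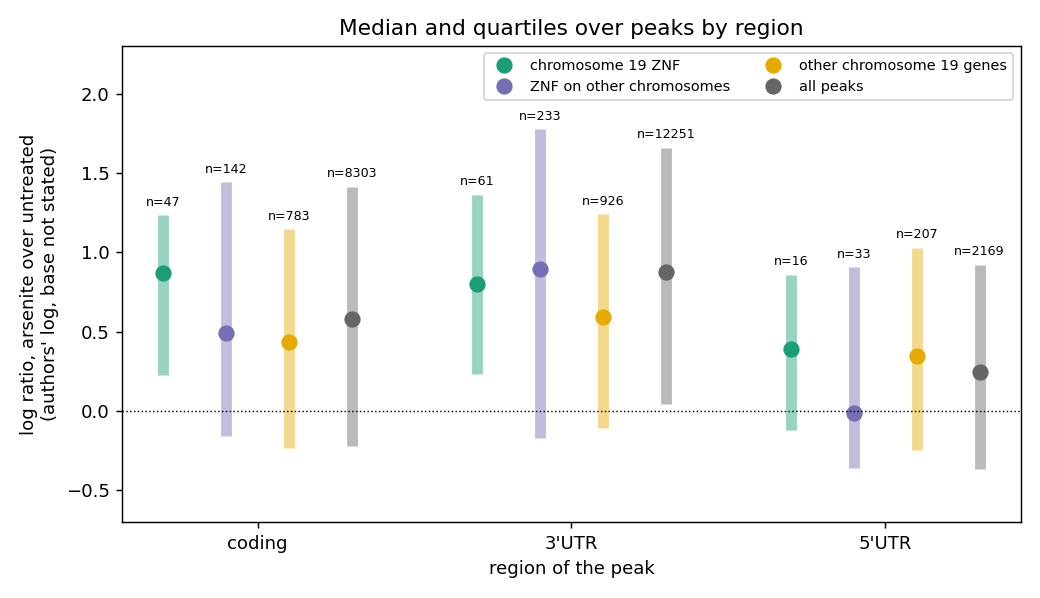
Median (dot) and quartiles (bar) of the log ratio over peaks (y axis) by region (x axis) for chromosome 19 ZNF genes, ZNF genes elsewhere, other chromosome 19 genes and all peaks. In coding sequence the chromosome 19 ZNF median of 0.87 lies above the other 3 medians, and in 3'UTRs its median of 0.80 lies below those of ZNF genes elsewhere and of all peaks.

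Within single genes, both orders occurred. Of the 9 genes with peaks in both regions, the coding median was the higher in 4 and the lower in 5. Over 1853 genes outside this group that had both, the median difference was -0.26 and the coding median was the lower in 60.2%. The genes with at least 2 peaks in each region were ZNF264, ZNF428, ZNF444 and ZNF580.

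ZNF264, a KRAB zinc finger gene, had the widest such difference of these 4, -2.11. Its 8 peaks in the 3'UTR all had log ratios above 0, from 0.13 to 1.87 with a median of 1.21. The 2 peaks at 1.87 overlap and have identical values, so they count as 1 measurement. Of its 3 coding peaks, 1 with a let-7 match had 1.22 (chromosome 19, 57723685 to 57723722, hg19), while a pair of overlapping peaks had -0.90 each (57724221 to 57724249 and 57724234 to 57724265). The latter of the pair carries a miR-181 match. The pair has the same log average and log ratio in the table, so they count as 1 measurement, and the coding median of ZNF264 rests on it.

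ZNF428 had 6 coding peaks between -0.80 and 0.89 and 3 peaks in the 3'UTR between -0.68 and 1.08, with medians of 0.10 and 0.27. In ZNF444, which encodes a zinc finger protein with a SCAN domain, all 8 peaks lay above 0. Its coding median was 0.88 and its 3'UTR median 0.66, and its highest peak, at 2.13, was in the 3'UTR (chromosome 19, 56671628 to 56671675). The ranges of the 2 regions overlapped in each of these genes.

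ZNF580 held 22 of the 124 peaks (17.7%), more than any other of the genes, and had values on both sides of 0. Its median was 0.05, and 12 of its 22 peaks lay above 0. The 6 coding peaks ranged from -0.17 to 0.83 with a median of 0.40, the 8 peaks in the 3'UTR from -1.28 to 1.14 with a median of 0.02, and the 8 peaks in the 5'UTR had a median of -0.14. Without this gene the median of the remaining 102 peaks was 0.89, and 84 of them (82.4%) lay above 0. The next member along the chromosome, ZNF581, had 2 peaks in its 5'UTR, with log ratios of 0.85 and 1.13.

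The highest log ratio was that of ZNF91, a KRAB zinc finger gene whose protein represses SVA retrotransposons. Its single peak, in the 3'UTR, had 3.27 (chromosome 19, 23541572 to 23541615) and carried matches to 3 families, miR-103/107, miR-15/16 and miR-23. ZNF180 followed with 2 coding peaks, at 2.63 and 2.09, neither with a listed seed. ZNF585B had 2.45 in its 3'UTR, and its close paralog ZNF585A had 0.35 at a coding peak with a miR-25/92 match. Values just above 2 were listed for ZNF121 (2.21, coding), ZNF805 (2.18, 3'UTR), ZNF254 (2.17, 3'UTR) and ZNF432 (2.02, coding). Of the 8 genes with the highest log ratios among the higher-average peaks (the 75% of the table with the highest log averages), 5 had that peak in the 3'UTR and 3 in coding sequence.

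The lowest log ratio among the higher-average peaks was -1.76, in the 3'UTR of ZNF784 (chromosome 19, 56133096 to 56133154). ZNF580 had -1.28 at a 3'UTR peak with a miR-125 match, and ZNF224, a KRAB repressor, had -1.15 at its only peak, in the 3'UTR and with a miR-25/92 match. ZNF805 had -0.97 at 1 peak, although its gene median over 7 peaks was 1.74, the other 6 lying between 1.01 and 2.18. ZNF20 had -0.77 at its only peak and ZNF787 -0.46 at 1 of 3 peaks. Genes with no peak above 0 numbered 5, namely ZNF20, ZNF527, ZNF224, ZNF784 and ZNF324, each with a single peak. All peaks lay above 0 in 32 of the 46 genes. No share over all genes is given here for either count, and 27 of the 46 genes had only 1 peak. Neither count is therefore read as a trait of these genes.

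ZNF146, whose protein consists almost wholly of zinc fingers, had the lowest value of any member, -2.05, at a coding peak with a miR-181 match (chromosome 19, 36727816 to 36727854). The log average there, -7.79, was also the lowest of any member. Its 3 peaks in the 5'UTR had 0.56, 0.68 and 1.12. Of its 3 peaks in the 3'UTR, 2 that overlap and have identical values had 0.66, and the third had -0.71. None of the 7 peaks of this gene was among the higher-average peaks. The coding and 3'UTR ranges of this gene did not overlap, but the former is a single peak.

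The seed matches of the coding peaks centred on 1 family. A miR-181 match was listed in 11 of the 47 coding peaks (23.4%), against 0.783% of all coding peaks and 0.654% of the 8256 coding peaks in other genes. The 11 peaks lay in 11 different genes, or 44.0% of the 25 genes with a coding peak. That share was 1.64% of the 3179 other genes with one. It was 6.38% of 47 ZNF genes on other chromosomes and 1.74% of 230 other chromosome 19 genes. ZNF genes on other chromosomes had 4 such peaks among 142 (2.82%), and other chromosome 19 genes 4 among 783 (0.511%). In 3'UTRs the share was 3.28% (2 of 61 peaks, in ZNF266 and ZNF136), against 1.32% of all 3'UTR peaks. The median peak length, which bears on how many seeds a peak can hold, was 44 nucleotides for these coding peaks and 49 for the other coding peaks.

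Seen from the miR-181 side, the coding peaks with its seed numbered 65 in the whole table. Chromosome 19 ZNF genes held 16.9% of them and 0.566% of all coding peaks. The symbols of the other zinc finger genes among the 65 were ZNF124 with 2 peaks and ZNF182, ZNF292, ZFP62 and ZBTB7A with 1 each, named after the values were seen. ZBTB7A is also on chromosome 19 but is not a member by its symbol.

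Each other matched family was in only 1 or 2 of the 47 coding peaks. Of the 50 families of the table, 7 had a match in a member coding peak. The miR-25/92, miR-23 and miR-19 families had 2 peaks each (4.26%), against 1.10%, 0.545% and 1.27% of other coding peaks. The miR-130a-3p, let-7 and miR-425-5p families had 1 each (2.13%), against 0.799%, 2.02% and 0.0848%. Shares that rest on 1 or 2 peaks are uncertain. The miR-25/92 matches were in ZNF585A and ZNF460, those of miR-23 in ZNF428 and ZNF805, and those of miR-19 in ZNF317 and ZNF823. With miR-181 set aside, 9 of the 47 coding peaks matched another family (19.1%), against 26.1% of the other coding peaks. The share was 33.8% in ZNF genes on other chromosomes and 19.7% in other chromosome 19 genes. The miR-15/16 family, the most frequent in the table with 994 peaks and in 4.82% of other coding peaks, had no match in a member coding peak. In 3'UTRs 19 families were matched, none in more than 3 of the 61 peaks, and the share with any match was 41.0%, against 38.5% of all 3'UTR peaks. In coding peaks that share was 38.3%, against 26.6% of all coding peaks. It was 35.2% in ZNF genes on other chromosomes and 19.9% in other chromosome 19 genes.

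**Figure D3:**
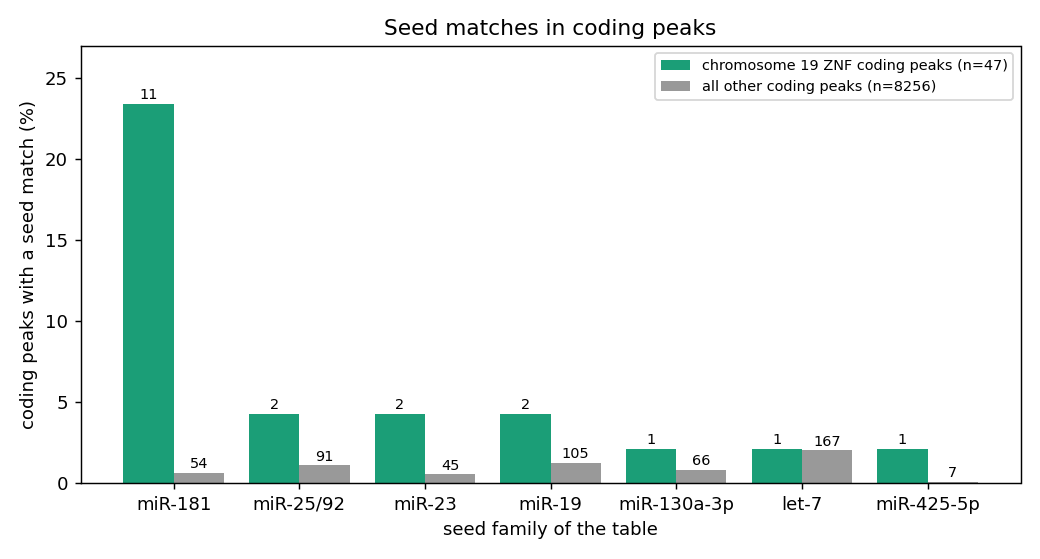
Share of coding peaks with a seed match (y axis, percent, from 0) for the 7 families matched in chromosome 19 ZNF coding peaks (x axis), with the numbers of peaks above the bars. The miR-181 bars stand at 23.4% and 0.654%, and the other families have 1 or 2 peaks each in the ZNF genes.

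The miR-181 matched coding peaks did not share 1 direction. The 8 log ratios above 0 were 2.02 in ZNF432, 1.78 in ZNF14, 1.78 in ZNF805, 1.48 in ZNF700, 1.42 in ZNF699, 0.85 in ZNF460, 0.80 in ZNF607 and 0.13 in ZNF584. The 3 under 0 were -0.04 in ZNF121, -0.90 in ZNF264 and -2.05 in ZNF146. These 11 peaks had a median of 0.85, and 72.7% lay above 0, against 68.4% of all coding peaks. The 36 member coding peaks with no miR-181 match had a median of 0.88. When the 25% of the table's peaks with the lowest log averages were left out, the difference between these sets, miR-181 matched minus not, was 0.58, where it was -0.02 over all of them. ZNF146 and ZNF460 are the genes whose miR-181 matched peaks this leaves out, so the direction of this difference is not stable.

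The peaks of highest log average in this set were those of ZNF700 (chromosome 19, 12059809 to 12059857), ZNF699 (9406630 to 9406676) and ZNF584 (58928491 to 58928551). Their log ratios were 1.48, 1.42 and 0.13. The ZNF805 peak (57764776 to 57764819) carries both a miR-181 and a miR-23 match, the pair of families whose sites share 5 bases. Whether the matches lie on the same bases was not tested. The 54 coding peaks with a miR-181 match in other genes had a median of 0.74, and 41 of them (75.9%) lay above 0, so the matched zinc finger peaks had a like median and share.

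Across all families, the median of seed-matched peaks exceeded that of unmatched ones by less here than in the whole table, but not by less than in other chromosome 19 genes. Member coding peaks with any match had a median of 0.89 over 18 peaks, and those with none 0.87 over 29, a difference of 0.02, where all coding peaks gave 0.50. In coding sequence it was 0.86 for ZNF genes on other chromosomes and -0.12 for other chromosome 19 genes. In 3'UTRs the members had 0.95 over 25 peaks with a match and 0.73 over 36 without, a difference of 0.23, where all 3'UTR peaks gave 0.52 and other chromosome 19 genes 0.22. The small number of peaks limits these values, and no test was made of them. The member coding peaks without a match were high, at 0.87 against 0.45 for all coding peaks without one.

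**Figure D4:**
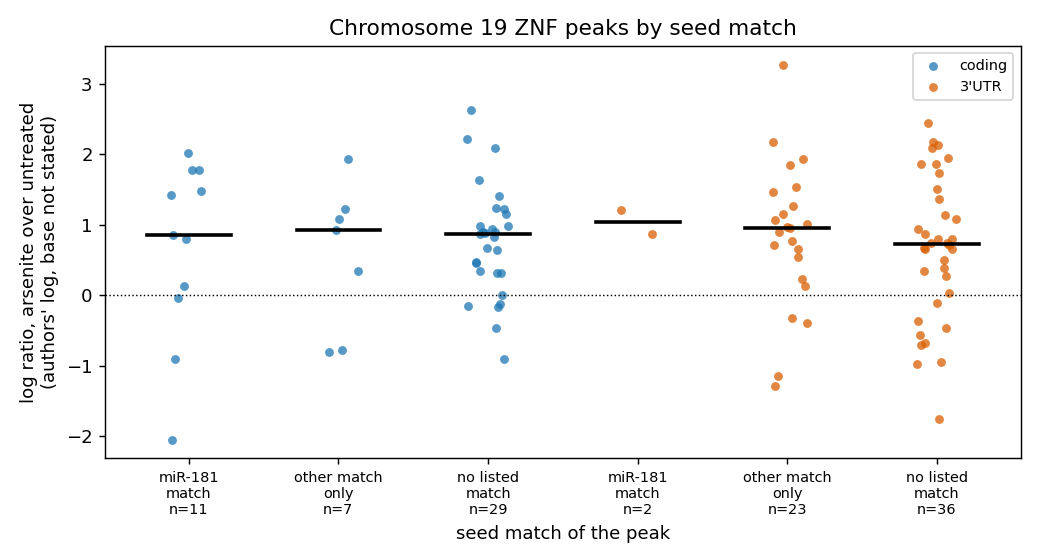
Log ratio (y axis, authors' log, base not stated) of the coding and 3'UTR peaks of chromosome 19 ZNF genes by seed match (x axis), with black lines at the medians. The coding medians with a miR-181 match, with another match only and with none are 0.85, 0.93 and 0.87, and each set spans both sides of 0.

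The miRNAs of these families were present on Ago2 in both treatments. For miR-181a-5p the authors' deposited table gave means of 131096 normalized reads untreated and 127771 with arsenite, rank 27 of 1000 mature miRNAs (log2 fold change -0.04, DESeq p = 0.982, adjusted p = 1). The next member, miR-181b-5p, had means of 41404 and 49723 and a log2 fold change of 0.26 (DESeq adjusted p = 1) in the authors' deposited table. The 4 listed miR-181 miRNAs made up 1.07% of the summed means of mature miRNAs in the authors' deposited table, the miR-25/92 family 2.36%, the miR-19 family 8.99% and the miR-23 family 0.123%. The family most often matched in zinc finger coding peaks was thus not the most abundant of these 4. Every adjusted p of their members was 1 in the authors' deposited table, which does not show that they were unchanged.

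A list of 19 genes was looked at, which holds TRIM28, other partners in the repression by KRAB zinc fingers and further silencing factors. The table held peaks for 15 of them, 100 peaks in all, of which 64 (64.0%) lay above 0, against 70.3% of all peaks. The gene median was above 0 for 13 (86.7%, against 81.3% of all genes) and below 0 for 2, TRIM28 and CHD3. The median of the 15 gene medians was 0.64, where that of all genes was 0.91. TRIM28, the corepressor bound by the KRAB domain, had 23 peaks from -1.84 to 2.15 with a median of -0.11, and 9 of them were above 0. CHD3 and CHD4, helicases of the NuRD repressor complex, had medians of -0.61 over 3 peaks and 0.66 over 16.

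The medians of the heterochromatin proteins that read the repressive mark were near the 0.91 of all genes. CBX3 had all 8 of its peaks above 0 with a median of 1.08. CBX5 had 6 of 10 above 0, from -1.13 to 2.16, with a median of 1.00. CBX1 had -0.33 and 2.44 at its 2 peaks. ATF7IP, the partner of the methyltransferase SETDB1, had 1.09 at 1 peak. MTA2 and MBD3, NuRD subunits, had 1.02 over 6 peaks and 0.64 over 18, and the deacetylase HDAC2 had 0.08 over 7. Of the other single-peak genes, PPHLN1, a subunit of the HUSH silencing complex, had 2.34, SMARCAD1, a chromatin remodeler, 0.62, and MORC2, an ATPase that works with HUSH, 0.38. The maintenance methyltransferase DNMT1 had 0.30 over 2 peaks and its cofactor UHRF1 0.02 at 1. No peak of these 15 genes carried a miR-181 match (0 of 100 peaks, against 1.01% of all peaks). So few peaks cannot tell this from the share over all peaks. SETDB1, HDAC1, MPHOSPH8 and FAM208A had no peak in the table.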

How the data were processed

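Neither deposited table has columns for single samples (0 of them), so each value summarises all replicates. Bowtie 0.12.8, TopHat, DESeq and the build hg19 are listed in the submitters' processing notes without saying what each was used for. The tool for peak calling is not given in the sources used here. Log averages and log ratios of peaks are entered as score values, since per the file headers they are logs of normalized CLIP abundance by the authors with no base stated. In the miRNA table the means are signal values (counts divided by size factors), with their ratio, its log2 value and p-values, all deposited by the authors.

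Members and lists were chosen with earlier results of these data known. Medians, quartiles and counts above 0, above 1 and below -1 were computed in Python 3.11.15 (pandas 2.3.3), after a check on simulated log ratios. Higher-average peaks are the 75% with the highest log averages (at least -6.25). Coordinates are on hg19 as deposited, with no statement of how starts are counted. Length is end minus start plus 1.

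Named genes were the 8 highest and 8 lowest higher-average peaks, 1 per gene, and the 6 genes with most peaks. Genes with at least 2 peaks in both regions were named too. So were up to 3 coding peaks for each of the 4 families matched most, and the listed KRAB partners and further silencing factors. Other genes printed were named after their values were seen. Of 133 family member names, 113 were found in RefSeq. Of 27 families with at least 2 names found, 25 share bases 2 to 8, and these bases were taken as the seed for that reason. The other two are those of miR-23, through miR-130a-5p, and of miR-324-3p.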

Additional observations from a re-analysis of the deposited data

How the results depend on the processing

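No paired analysis was possible because the tables hold no values of single samples. For the same reason no replicate was left out. The count of zinc fingers per protein was not run, since no protein sequences were used here. Values were held against the 95% binomial interval of a median or share over peaks, which takes peaks as independent. Leaving out ZNF580, and the alternatives for the miR-181 share and difference, were chosen after the data had been seen. The median log ratio of the zinc finger peaks, 0.80, became 0.93 with 1 peak per gene, 0.92 with gene medians and 0.15 when centred on the median of all peaks. Coding minus 3'UTR, 0.07, became -0.022 within genes, -2.17e-05 in the upper 75% of log averages and -0.0071 without overlapping peaks. The miR-181 difference in coding peaks, -0.02, became 0.26 without overlapping peaks and 0.58 in the upper 75%. Of the 2 ZNF264 coding peaks with identical values, the rule for overlaps kept the one without a miR-181 match, at the lower start. Their value of -0.90 thus counted only as unmatched, so 0.26 rests on how this tie was settled. So does the miR-181 share without overlapping peaks. The cause of the other changes was not tested. The other 16 values stayed within their interval and kept their sign, among them the miR-181 share, which ran from 20.9 to 26.8%. Staying within an interval says little where the interval is wide. That of the seed match difference, 0.24 over all member peaks, ran from -0.06 to 0.55. This difference was 0.02 within coding sequence and 0.09 without ZNF580, but 0.23 within 3'UTRs and in the upper 75%.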

Other observations

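The members lie in several stretches of chromosome 19 (hg19), and their values are given here by stretch, with no test. Between 20 and 25 Mb, where no other gene of the table has a peak, the 4 peaks of ZNF714, ZNF91 and ZNF254 ranged from 0.98 to 3.27, all in 3'UTRs, with a median of 2.13. Between 56 and 60 Mb, where 64 of the 124 peaks in 13 genes lie, the median was 0.67, beside 0.46 over 75 peaks of other genes there. Of these 64 peaks 22 are in ZNF580, and the median of the other 42 was 0.87. The median of the 13 gene medians was 0.77. Below 14 Mb the 17 peaks of 11 genes had a median of 0.99, beside 0.51 over 804 peaks of other genes. Between 43 and 46 Mb the median was 0.29 over 12 peaks, 9 of them in ZNF428, beside 0.36 over 43 peaks of other genes. The miR-181 matched coding peaks were not in 1 stretch, with 3 below 14 Mb, 1 from 14 to 20 Mb, 2 from 28 to 43 Mb, 1 from 51 to 56 Mb and 4 above 56 Mb.

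Of the 124 peaks, 27 were dropped when only 1 was kept of those that overlap, and 97 remained. In ZNF146, ZNF121 and ZNF264 there were 4 pairs of peaks with exactly the same log average and log ratio. Such repeated pairs of values occurred in 280 sets in the whole table.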
